A study of Mus musculus with 26 samples.

Results

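Haemoglobin and related genes were followed through an RNA-seq series of mouse mesenteric arteries, the small arteries that supply the gut. The 6 genes were taken by symbol from the 57010 genes of the deposited count table: Hba-a1 and Hba-a2 (alpha globin), Hbb-bs and Hbb-bt (beta globin), Alas2 and Cyb5r3. The 26 libraries came from male mice aged 8 weeks and fall into 8 groups, a control and a mutant group for each of 4 changes in Panx1, the gene of the channel protein pannexin 1. The WT group (3 libraries) was the control of a global Panx1 KO (3 libraries). Mice labelled Y198F+/+ (3 libraries) were set against mice labelled Y198F-/- (3 libraries), S205A+/+ (4 libraries) against S205A-/- (4 libraries), and Y308F+/+ (3 libraries) against Y308F-/- (3 libraries). The -/- groups, which lack the substitution, are called controls here. The design text describes 3 vascular trees for each genotype with littermate or WT controls, and the labels do not say how many animals gave each library. Where libraries are not known to come from separate animals, p-values measure only the spread between libraries, which may be technical. No drug or other treatment is given in the labels.

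Haemoglobin, the oxygen carrier of erythrocytes, is built from alpha and beta chains, each holding a haem group. Erythroid cells make both chains together, and young erythrocytes still carry globin mRNA after losing their nucleus. Alas2 is the erythroid form of the first enzyme of haem synthesis. Cyb5r3 encodes cytochrome b5 reductase 3, which returns methaemoglobin to its oxygen-binding state in erythrocytes and is also active in many other cells. In small resistance arteries alpha globin has also been described in endothelium, where it limits the nitric oxide that reaches smooth muscle and Cyb5r3 reduces its haem iron. In smooth muscle Cyb5r3 reduces the haem of soluble guanylate cyclase.

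Total counts ran from 14895969 to 23617902 per library. In the library names, the number after the line's prefix starts with 22 for 9 libraries, referred to as the 22 series, namely S205A mutants 2 to 4, controls 1 to 3 of that line and all 3 Y198F mutants. No Y198F control was among them, so the Y198F substitution and the library series cannot be told apart. Panx1 was at 0.582 to 1.36 CPM (counts scaled to the TMM-adjusted library size) in the KO libraries and 3.38 to 4.96 CPM in WT. With 16 Panx1 counts, the library labelled S205A control 1 lay inside the KO range of 11 to 27 counts, and it had the lowest sum of 6 endothelium markers of all libraries (898 CPM, against 2508 to 6812 CPM in the other 25). Panx1 counts just above the KO range were found in S205A control 3 (28), S205A mutant 4 (29) and Y308F control 3 (32). Their endothelium marker sums were 3356, 3177 and 3685 CPM. The S205A fold changes, interaction tests and list medians are also given without the library labelled S205A control 1, which was low in both measures. Smooth muscle markers, such as Acta2 and Myh11, summed to 18338 to 38145 CPM and were present in every library of this labelled artery tissue.

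The 2 alpha genes lie on the plus strand of chromosome 11 (GRCm39), Hba-a1 at chr11:32233186-32234504 and Hba-a2 at chr11:32246168-32247320. The 2 beta genes lie on the minus strand of chromosome 7, Hbb-bs at chr7:103475730-103482989 and Hbb-bt at chr7:103461727-103465047. The authors' other symbol column names Hbb-bs as Hbb-b1. Alas2 is on the plus strand of chromosome X at chrX:149330371-149353634, and 13.8% of its exon bases overlap exons of Apex2 or Mir3620. Cyb5r3 is on the minus strand of chromosome 15 at chr15:83037695-83056793, with 6.3% of its exon bases under the lncRNA Gm49463. The lncRNA Gm74438 covers 8.0% of the exon bases of Hbb-bs. Positions and exons are those of GENCODE M39. Whether counting used the strand, and how reads that fit several genes were treated, is not given in the sources used here, so counts in these overlaps cannot be assigned to one gene.

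The copies of each chain are nearly the same sequence, which bears on every count below. The coding parts of Hba-a1 and Hba-a2 (426 bases each without the stop codon) differed by 1 base, C381T, where positions are counted from the A of the start codon, the Hba-a1 base stands first and the Hba-a2 base last. The coding parts of Hbb-bs and Hbb-bt (441 bases each) also differed by 1 base, C417T, with the Hbb-bs base first. The stretches around these bases are shown because they hold the only coding difference between the copies, which stands in capitals.
Hba-a1, coding bases 351 to 410: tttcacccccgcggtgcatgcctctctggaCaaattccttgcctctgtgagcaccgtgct
Hba-a2, coding bases 351 to 410: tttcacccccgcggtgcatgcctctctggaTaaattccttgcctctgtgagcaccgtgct
Hbb-bs, coding bases 387 to 441: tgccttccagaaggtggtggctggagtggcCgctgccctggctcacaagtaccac
Hbb-bt, coding bases 387 to 441: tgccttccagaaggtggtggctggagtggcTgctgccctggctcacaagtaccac

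Of all 150-base windows of the canonical Hba-a1 transcript, 61.0% were also in Hba-a2, and 72.1% of the Hba-a2 windows were in Hba-a1. For the beta pair the shares were 54.6% of Hbb-bs windows and 50.6% of Hbb-bt windows. No window was shared between Hba-a1 and Hbb-bs. If reads that fit both copies were counted, the sums of the 2 alpha genes and of the 2 beta genes depend less on read assignment than the single rows. If such reads were left out, the sums lack them too, and the shared windows differ between the alpha and beta pairs. Sums and single rows are both given.

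Promoters are shown for genes that varied together across libraries, from RefSeq (GRCm38.p6), as the 100 bases before the start. Capitals mark 4 short motifs searched on either strand, the CACCC box (letters CACCC), the CCAAT box (letters CCAAT), the TATA box (letters TATAA) and the GATA motif (letters AGATAA).
Hba-a1: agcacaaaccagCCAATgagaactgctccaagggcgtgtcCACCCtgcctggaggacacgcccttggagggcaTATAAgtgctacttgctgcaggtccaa
Hbb-bs: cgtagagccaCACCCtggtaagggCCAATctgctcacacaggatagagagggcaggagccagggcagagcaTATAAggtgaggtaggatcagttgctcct
Hbb-bt: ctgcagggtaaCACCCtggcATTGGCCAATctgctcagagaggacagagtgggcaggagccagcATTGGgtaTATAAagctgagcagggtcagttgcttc
Alas2: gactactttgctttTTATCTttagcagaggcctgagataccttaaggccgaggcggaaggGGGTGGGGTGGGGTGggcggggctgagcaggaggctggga

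The Hba-a2 window shares a run of 97 bases with that of Hba-a1. All 4 globin windows held the CACCC box, the CCAAT box and the TATA box, which occurred together in 0.472% of 32851 promoters of the same length. The Alas2 window held the GATA motif once and the CACCC box 3 times, all on the minus strand. The GATA motif was found in 3.59% of those promoters, the CACCC box in 27.2%, the CCAAT box in 18.9% and the TATA box in 10.2%. No 2 matches overlapped in the windows shown. These letters are descriptions of the windows and say nothing of binding.

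Globin mRNA was found in every library, at levels that spanned 571-fold. The summed level of the 4 globin genes was 37.8, 1.05 and 602 CPM in WT libraries 1 to 3 and 34.9, 33.9 and 18.4 CPM in KO. It was 15.1, 129 and 19.5 CPM in the Y198F controls and 64.7, 44.7 and 383 CPM in the Y198F mutants. It was 105, 39.3, 30.7 and 23.2 CPM in the S205A controls and 52.7, 60.2, 57.3 and 68.1 CPM in the S205A mutants. It was 514, 227.5 and 19.5 CPM in the Y308F controls and 171, 487 and 21.7 CPM in the Y308F mutants. The lowest and the highest library of the series were both WT: WT 2 with 19 globin counts and WT 3 with 11710, or 0.0587% of its counts. Sums above 300 CPM occurred in 4 libraries of 4 different groups, 2 of them control groups. Only the S205A mutants and the KO libraries kept within a 2-fold range, 1.29-fold and 1.90-fold from lowest to highest. In bulk RNA fewer cells of a type and less RNA per cell cannot be told apart.

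**Figure D1:**
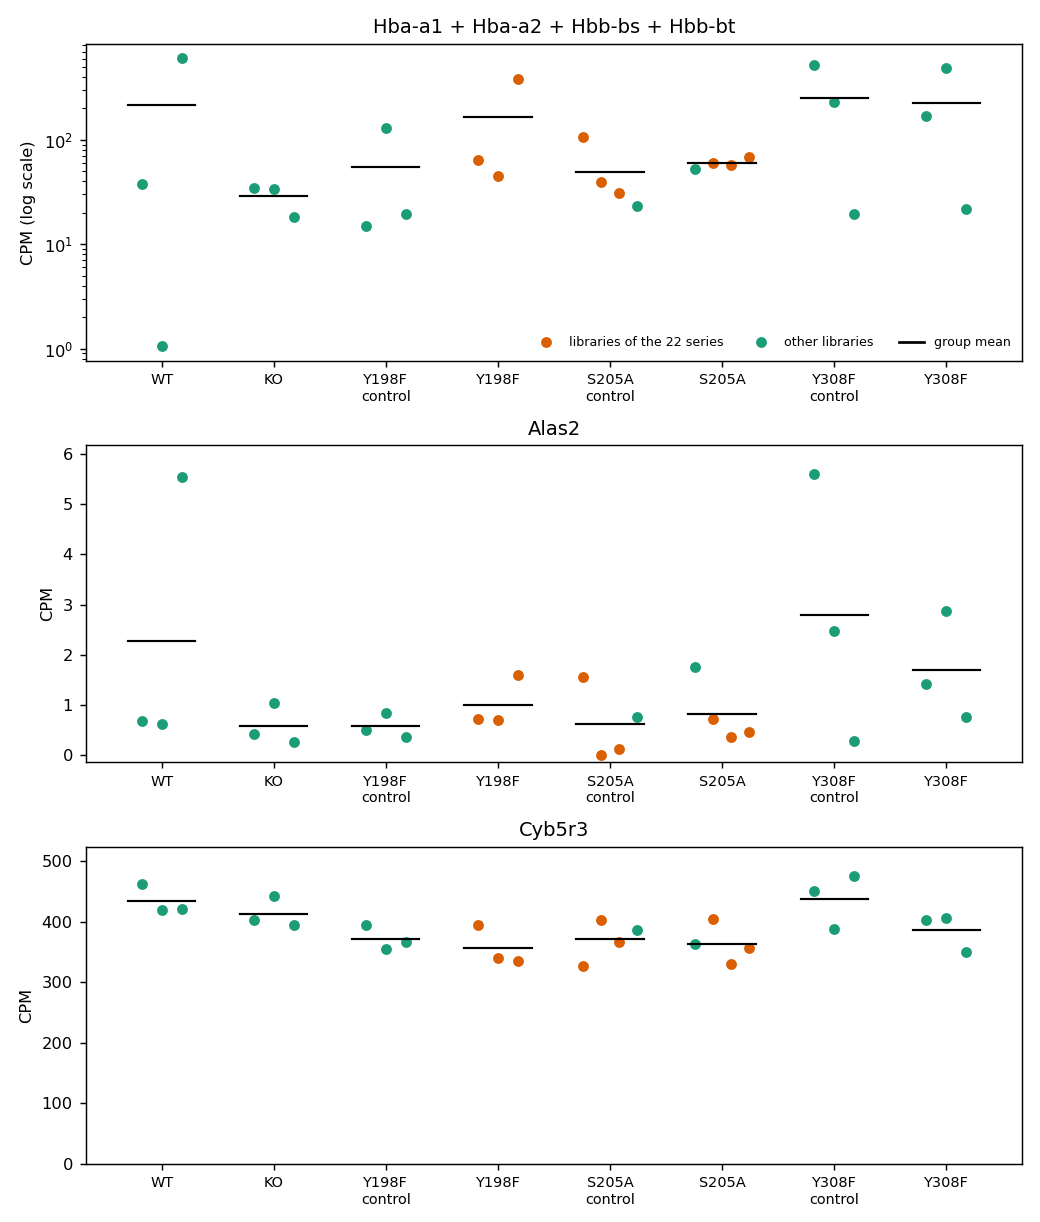
Level in each library by group, in CPM: the sum of the 4 globin genes (log scale), Alas2 and Cyb5r3 (linear scales), with points coloured by library series and a line at each group's mean. Summed globin runs from 1.05 to 602 CPM and Alas2 from 0 to 5.62 CPM, while Cyb5r3 lies between 327 and 476 CPM.

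Per kilobase of canonical transcript, Cyb5r3 had the highest mean level over the 26 libraries, 161 CPM per kb. Hba-a2 followed with 55.9, Hba-a1 with 53.5, Hbb-bs with 49.97 and Hbb-bt with 23.6 CPM per kb, and Alas2 was lowest with 0.611 CPM per kb. The coefficient of variation over libraries was 136% to 139% for the 4 globin genes, 117% for Alas2 and 10.4% for Cyb5r3. Within single libraries, the log2 ratio per length was 0.05 ± 0.127 (SD, n = 26) for Hba-a2 over Hba-a1 and 0.11 ± 0.234 (SD, n = 25) for Hba-a1 over Hbb-bs, so these neighbours did not differ beyond their spread. It was 1.09 ± 0.340 (SD, n = 25) for Hbb-bs over Hbb-bt, above 0 in all 25 libraries with beta counts, and 4.91 ± 1.11 (SD, n = 24) for Hbb-bt over Alas2, above 0 in all 24 where both were counted. Cyb5r3 was above Hba-a2 per length in 22 of 26 libraries.

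Among the alpha genes, Hba-a1 was at 11.9, 0.499 and 191 CPM in WT and 10.4, 10.6 and 5.33 CPM in KO. It was at 4.65, 42.7 and 6.55 CPM in the Y198F controls and 22.1, 14.2 and 122 CPM in the Y198F mutants. The S205A controls had 35.1, 10.6, 9.65 and 8.29 CPM and the S205A mutants 16.0, 17.99, 18.1 and 24.8 CPM. Within each of the 4 lines the ranges of the control and mutant groups overlapped, and a single library was often far above the others of its group, as in WT and the Y198F mutants. The Y308F controls had 161, 74.6 and 6.61 CPM and the Y308F mutants 51.1, 145 and 6.41 CPM, nearly the same 3-step spread in both groups. Hba-a2 followed Hba-a1 from 0.554 CPM in WT 2 to 179 CPM in WT 3. The count ratio of Hba-a1 to Hba-a2 was 1.11 ± 0.0978 (SD, n = 26), between 0.900 and 1.34.

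Among the beta genes, Hbb-bs was at 10.1, 0 and 154 CPM in WT and 10.8, 8.77 and 5.38 CPM in KO. It was at 4.59, 35.1 and 4.52 CPM in the Y198F controls and 14.6, 11.8 and 94.7 CPM in the Y198F mutants. WT 3, Y198F control 2 and Y198F mutant 3 were the highest of their groups, as for Hba-a1. The S205A controls had 26.01, 11.5, 7.82 and 6.30 CPM and the S205A mutants 15.4, 18.1, 12.0 and 14.2 CPM. The Y308F controls had 141, 59.1 and 4.63 CPM and the Y308F mutants 45.6, 141 and 6.26 CPM. Hbb-bt was lower than Hbb-bs in every library with beta counts, from 1.51 CPM in S205A control 4 to 77.5 CPM in WT 3. In WT 2 both beta genes had 0 counts, where a count of 0 allows up to 3 counts or 0.166 CPM, for counting error only.

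The mean split between the beta copies differed between the library series, with overlapping ranges. The count ratio of Hbb-bs to Hbb-bt was 1.64 ± 0.221 (SD, n = 9) for the 22 series, from 1.31 to 1.97, and 2.30 ± 0.549 (SD, n = 16) in the other libraries with beta counts, from 1.81 to 4.18. The highest ratio came from S205A control 4, with 117 against 28 counts. No test of this split was made. The 22 series holds only Y198F mutants and libraries of the S205A line, so mouse line and series are mixed in it. The Hba-a1 to Hba-a2 ratio was 1.16 ± 0.0905 (SD, n = 9) for the 22 series and 1.08 ± 0.0937 (SD, n = 17) elsewhere. The part of read assignment in these splits was not tested.

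Alpha globin counts exceeded beta globin counts in all 25 libraries with beta counts. The alpha to beta ratio was 1.53 ± 0.253 (SD, n = 25), from 1.09 in S205A control 2 to 2.05 in S205A mutant 4, while the summed globin level of the same libraries spanned 15.1 to 602 CPM. Group means were 1.61 in WT (n = 2), 1.48 in KO, 1.52 in the Y198F controls, 1.53 in the Y198F mutants, 1.51 in the S205A controls and 1.58 in the S205A mutants. The Y308F controls averaged 1.67 ± 0.151 (SD, n = 3) against 1.39 ± 0.0495 (SD, n = 3) for the Y308F mutants. By library series the ratio was 1.51 ± 0.313 (SD, n = 9) for the 22 series against 1.55 ± 0.223 (SD, n = 16) elsewhere, a difference smaller than either spread. The alpha copies share more of their windows than the beta copies, and the part of shared reads in this ratio was not tested.

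**Figure D2:**
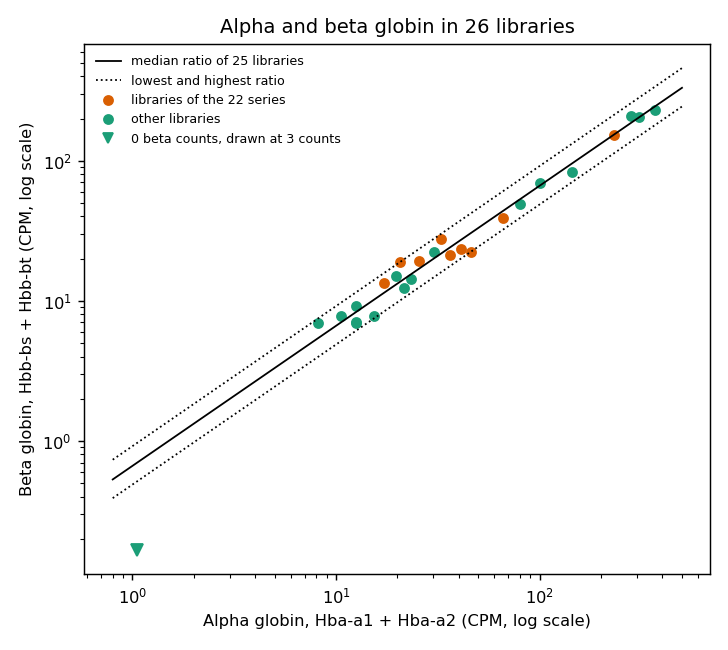
Beta globin against alpha globin in each library, in CPM on log scales, with lines at the median, lowest and highest count ratio of the 25 libraries with beta counts. Points lie between ratios of 1.09 and 2.05, apart from WT 2, drawn as a triangle at the 3-count limit of its 0 beta counts.

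WT 2 stood apart, with 19 alpha counts (9 of Hba-a1 and 10 of Hba-a2) and 0 beta counts. Its alpha share of globin counts was 100%, with an exact 95% binomial interval from 82.4%, which corresponds to an alpha to beta ratio of at least 4.67. In the comparison of ratios this library is entered at 6.33, with beta set at the limit of 3 counts. The other 25 libraries had alpha shares from 52.2% to 67.2%. Its Alas2 level, 0.610 CPM from 11 counts, was close to the 0.672 CPM of WT 1, so the globin genes and not Alas2 were at their lowest there.

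**Figure D3:**
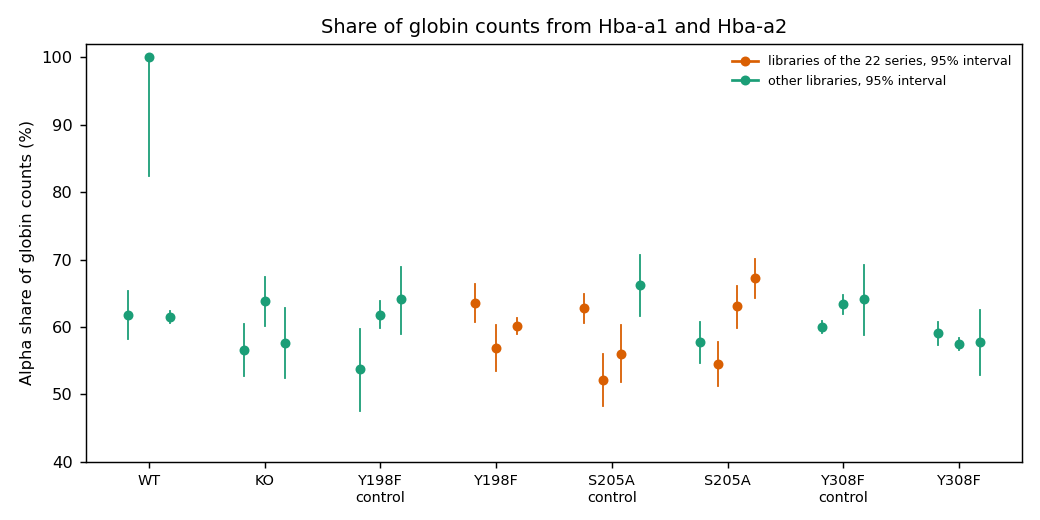
Share of globin counts that came from the alpha genes in each library, in percent, with exact 95% binomial intervals and colours by library series. The share is 52.2% to 67.2% in 25 libraries and 100% in WT 2, and the 3 Y308F mutants lie below the 3 Y308F controls.

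The ratio was compared in each line on a log2 scale with exact two-sided permutation tests and Benjamini-Hochberg adjustment over the 4 lines. In the Y308F line the controls had ratios of 1.501, 1.73 and 1.79 and the mutants 1.44, 1.35 and 1.37, so the groups did not overlap. The log2 difference was -0.27, with an exact p of 0.1, the smallest that 3 against 3 libraries can give, and an adjusted p of 0.4. In the KO line the ratios were 1.62, 6.33 (with beta at the 3-count limit) and 1.598 in WT and 1.30, 1.77 and 1.36 in KO, a log2 difference of -0.80 (exact p = 0.3) that fell to -0.14 without WT 2. In the Y198F line the log2 difference was 0.02 (exact p = 1) and in the S205A line 0.08 (exact p = 0.743). Without the library labelled S205A control 1 the S205A difference was 0.15.

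Alas2, the haem synthesis enzyme of erythroid cells, was near the lower limit of detection. It had 0 to 122 counts per library, under 1 CPM in most of them. WT had 0.672, 0.610 and 5.55 CPM and KO 0.423, 1.04 and 0.251 CPM. The Y198F controls had 0.504, 0.844 and 0.364 CPM and the Y198F mutants 0.706, 0.689 and 1.598 CPM. The libraries highest in globin, WT 3 and Y308F control 1, were also the highest in Alas2, with 108 and 122 counts. The S205A controls had 1.56, 0, 0.111 and 0.754 CPM and the S205A mutants 1.75, 0.720, 0.359 and 0.451 CPM. The Y308F controls had 5.62, 2.47 and 0.275 CPM and the Y308F mutants 1.42, 2.87 and 0.763 CPM. Groups overlapped in all 4 lines, and in S205A control 2 the 0 counts allow up to 0.176 CPM.

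Cyb5r3, the reductase, was abundant and even. WT had 462.5, 419 and 420.2 CPM and KO 402, 443 and 394 CPM. The Y198F controls had 394.5, 354 and 367 CPM and the Y198F mutants 395, 339.6 and 335 CPM. The S205A controls had 327, 402.5, 366.5 and 387 CPM and the S205A mutants 363, 404.5, 330.2 and 356 CPM. The Y308F controls had 451, 387 and 476 CPM and the Y308F mutants 403, 406 and 349.9 CPM. Control and mutant ranges overlapped in all 4 lines. Over the 26 libraries the highest was 1.456 times the lowest, against 571 times for summed globin.

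None of the 6 genes passed an adjusted p of 0.05 in the KO comparison, where 0.0309% of 16193 genes did (edgeR's quasi-likelihood test with Benjamini-Hochberg adjustment, used for every fold change here). The log2 fold changes were -2.93 (SE 1.90, adjusted p = 0.638) for Hba-a1, -2.88 for Hba-a2, -2.70 for Hbb-bs and -2.98 for Hbb-bt, each lower in KO by value. Alas2 was at -1.96 (SE 0.980, adjusted p = 0.509) and Cyb5r3 at -0.05 (SE 0.115, adjusted p = 0.905). The 95% intervals were -8.00 to 2.13 for Hba-a1 and -0.31 to 0.21 for Cyb5r3. The globin value rested on WT 3: without that library Hba-a1 was at 0.52, Hba-a2 at 0.54, Hbb-bs at 0.74 and Hbb-bt at 0.67, and Alas2 at -0.14. By limma voom, with all libraries, the 4 globin values were -0.41, -0.43, 1.06 and 0.54 in the same order, so the beta genes were then higher in KO by value. The 3 adipocyte markers, Adipoq, Plin1 and Cidec, also had negative values (median -1.57, 0 passed by edgeR), with sums of 117 to 799 CPM in WT and 42.9 to 222 CPM in KO. The medians of the smooth muscle, endothelium and fibroblast markers were -0.23, -0.05 and 0.03, and the part of other cell types in the globin values was not tested. Mean summed globin in KO was 0.136 times that in WT, the ratio of medians 0.898 and that of geometric means 0.941. On the log2 scale the difference of summed globin was -0.09 with an exact p of 0.8. It was 2.08 without WT 3 and -2.43 without WT 2.

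In the Y198F comparison, 15% of 16050 genes passed and none of the 6 did. The log2 fold changes were 1.55 for Hba-a1 (SE 1.37, adjusted p = 0.547), 1.57 for Hba-a2, 1.45 for Hbb-bs and 1.95 for Hbb-bt (SE 1.30, adjusted p = 0.420). Alas2 was at 0.80 and Cyb5r3 at -0.07, with a 95% interval of -0.31 to 0.18. The adipocyte markers had a median of 1.26, and 0 of 3 passed by edgeR. They summed to 84.2 to 139.9 CPM in the controls and 42.2 to 688 CPM in the mutants. The medians of the smooth muscle, endothelium and fibroblast markers were 0.31, 0.15 and -1.12, with 2 of 5, 2 of 6 and 0 of 4 genes passing. These counts stand beside the 15% of all genes that passed, and the part of other cell types in the globin values was not tested. Summed globin differed by 1.62 on the log2 scale with an exact p of 0.3, and the ranges of 15.1 to 129 CPM in controls and 44.7 to 383 CPM in mutants overlapped. Without Y198F mutant 3 the edgeR value was 0.02 for Hba-a1, -0.03 for Hba-a2, -0.15 for Hbb-bs, 0.36 for Hbb-bt and 0.29 for Alas2. Without Y198F control 2 it was 3.22 for Hba-a1, 3.28 for Hba-a2, 3.13 for Hbb-bs, 3.33 for Hbb-bt and 1.18 for Alas2. Against the 3 S205A controls of the 22 series Hba-a1 was at 1.51 (SE 0.970, adjusted p = 1), and Cyb5r3 at -0.04. Against S205A controls 2 and 3 alone, a setting chosen after the data were seen, Hba-a1 was at 2.38 (SE 1.32, adjusted p = 0.999) and Cyb5r3 at -0.11. These 2 controls had 0 and 2 Alas2 counts, at or below the 3-count limit, against 13, 13 and 30 in the Y198F mutants, so no fold is given for Alas2. In these comparisons, which set different mouse lines side by side, 0 genes passed by edgeR, and 492 and 719 had an unadjusted p under 0.05.

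In the S205A comparison 0% of 15709 genes passed by edgeR, with 451 at an unadjusted p under 0.05 and 40 genes past the threshold by DESeq2. Hba-a1 was at 0.27 (SE 0.446), Hba-a2 at 0.30, Hbb-bs at 0.21, Hbb-bt at 0.27, Alas2 at 0.43 and Cyb5r3 at -0.03 (SE 0.129), all with an adjusted p of 1. The 4 mutants lay within 52.7 to 68.1 CPM of summed globin, inside the 23.2 to 105 CPM of the controls. The log2 difference was 0.52 with an exact p of 0.371. Without the library labelled S205A control 1, the difference was 0.96 and the 4 mutants lay above the other 3 controls, with an exact p of 0.0286, the smallest this design can give and not adjusted for the 26 single libraries left out over the 4 lines. The edgeR values were then 1.01 for Hba-a1, 1.06 for Hba-a2, 0.81 for Hbb-bs, 0.79 for Hbb-bt, 1.48 for Alas2 and -0.08 for Cyb5r3, and none passed. The Alas2 value rests on 0, 2 and 14 counts in S205A controls 2 to 4, where 0 and 2 are at or below the 3-count limit. Without S205A control 4 the edgeR values were 0.06 for Hba-a1 and 0.08 for Hba-a2. Fibroblast markers summed to 1056 to 2758 CPM in the mutants and 635 to 833 CPM in the 4 controls, with a median log2 fold change of 1.49 and 0 of 4 past the threshold by edgeR (3 at an unadjusted p under 0.05). The medians of the endothelium and adipocyte markers were -0.09 and -0.55. Without the library labelled S205A control 1 the medians were 1.43 for fibroblast, -0.42 for endothelium and -0.74 for adipocyte markers, and the part of these cell types in the globin difference was not tested. Within the 22 series Hbb-bs was at -0.03. The part of that library's low Panx1 and endothelium marker levels in this dependence was not tested.

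In the Y308F comparison 0% of 16037 genes passed by edgeR, with 706 at an unadjusted p under 0.05 and 0 genes past the threshold by DESeq2. Hba-a1 was at -0.25 (SE 1.48, adjusted p = 0.989), Hba-a2 at -0.22, Hbb-bs at -0.08 and Hbb-bt at 0.04. Alas2 was at -0.72 (SE 0.899, adjusted p = 0.964) and Cyb5r3 at -0.17 (SE 0.149, adjusted p = 0.949), with a 95% interval of -0.51 to 0.17. Summed globin differed by -0.11 on the log2 scale with an exact p of 0.9. Leaving out single libraries moved this between -1.49 without Y308F control 3 and 1.13 without Y308F mutant 3. The adipocyte markers had a median of -0.58 and the fibroblast markers of 0.01, and none passed by edgeR.

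**Figure D4:**
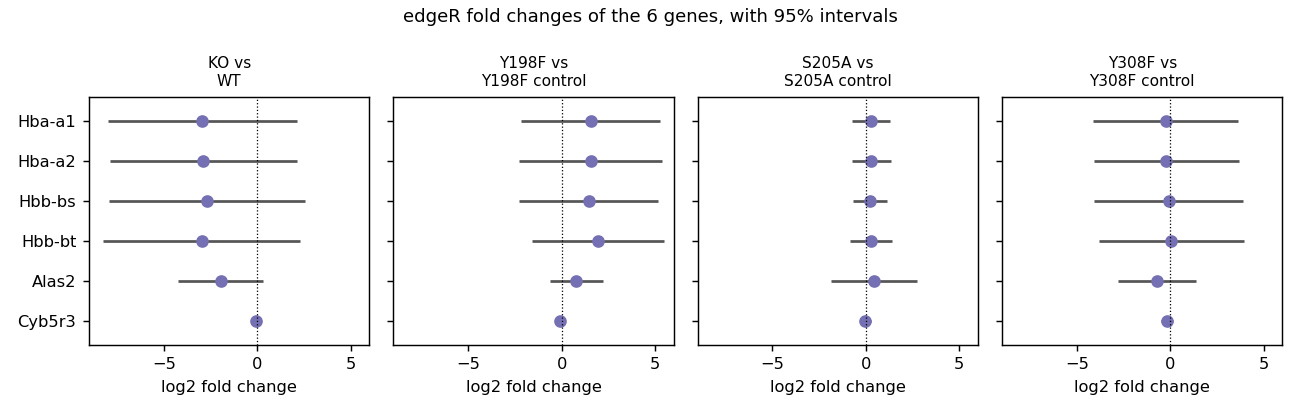
Log2 fold changes of the 6 genes in the 4 mutant and control comparisons, with 95% intervals from edgeR and a dotted line at 0. Intervals of the globin genes span several log2 units in the KO, Y198F and Y308F comparisons, and those of Cyb5r3 are hidden by the points or barely wider.

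**Figure D5:**
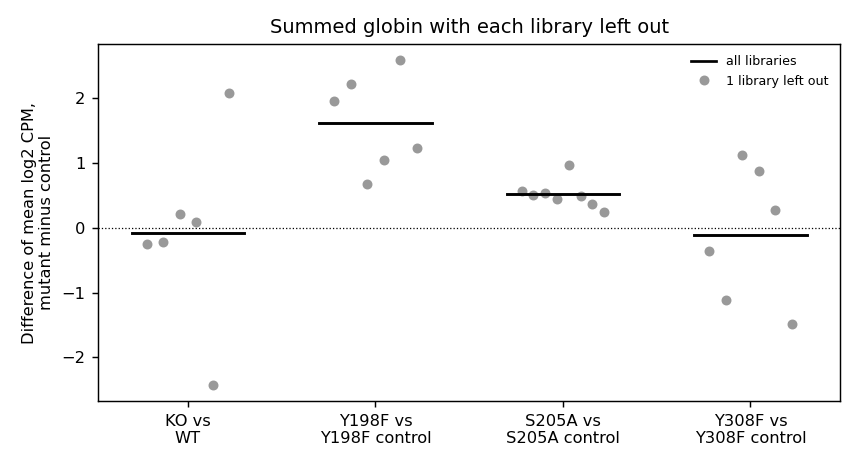
Difference of mean log2 CPM of summed globin, mutant minus control, with all libraries (line) and with each library left out in turn (points). Values change sign in the KO and Y308F comparisons and run from 0.67 to 2.58 for Y198F and from 0.24 to 0.96 for S205A.

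The precision behind these values differed between the genes. The SE of Hba-a1 was above that of 100% of genes tested (rounded) in the KO comparison, 99.7% for Y198F, 75.5% for S205A and 99.9% for Y308F, while that of Cyb5r3 was above that of 12.0% to 28.9% of genes. The median SE over all genes was 0.176 to 0.226. The Hba-a1 difference of the S205A line, 0.27 with an SE of 0.446, was within its own error. A difference of that size would also have been within the error of the other lines, where single libraries spread most.

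The 4 mutant effects were also set against each other in 6 interaction tests with edgeR. The share of genes past an adjusted p of 0.05 was 11.6% for KO against Y198F, 0.00562% for KO against S205A and 0.0116% for KO against Y308F. It was 0% for Y198F against S205A, 5.7% for Y198F against Y308F and 0% for S205A against Y308F. None of the 6 genes passed in any pair. The KO effect on Hba-a1 minus the Y198F effect was -4.48 (SE 2.38, adjusted p = 0.274 by edgeR), and for Alas2 it was -2.76 (SE 1.18, adjusted p = 0.150 by edgeR). Both effects rested on single libraries: the Hba-a1 difference was -1.03 without WT 3, -2.95 without Y198F mutant 3 and 0.49 without both, settings chosen after the data were seen, and the Alas2 difference -0.92, -2.25 and -0.44. Without the library labelled S205A control 1, the Hba-a1 difference was -3.97 for KO minus S205A (-3.22 with it), 0.53 for Y198F minus S205A (1.28 with it) and 1.25 for S205A minus Y308F (0.49 with it), and none of the 6 genes passed. The Cyb5r3 effects differed by 0.02 to 0.12 log2 units in size over the 6 pairs with all libraries.

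In the authors' deposited table for KO against WT, the log2 fold change was -2.94 for Hba-a1 (adjusted p = 0.480) and -0.06 for Cyb5r3 (adjusted p = 0.949). In the authors' deposited table for Y198F, Hba-a1 had 1.72 with an adjusted p of 0.836. That table follows the S205A controls and not the libraries labelled as Y198F controls: over 11205 genes with a base mean of at least 100, its log2 fold changes lay within 0.05 of the log2 ratio of mean normalized counts against the 4 S205A controls for 100% of genes (rounded), and for 15.4% of genes against the 3 Y198F controls. The value of 1.72 is therefore not a comparison with the labelled Y198F controls. For Hba-a1 the log2 ratio of mean CPM was 1.73 against the 4 S205A controls, the library labelled S205A control 1 included, and 1.55 against the 3 Y198F controls.

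Across libraries, alpha and beta globin rose and fell together. Pearson's r of log2 CPM was 0.969 and Spearman's rho 0.979 over 26 libraries (permutation p = 1e-05 for both, the smallest 100000 permutations can give, and 3e-05 adjusted over 3 relations). The r was 0.964 in the 22 series, 0.973 in the others, 0.976 for deviations from the group means and 0.987 without the 2 libraries farthest from the median. Summed globin and Alas2 had r = 0.661 and rho = 0.71 (permutation p = 0.0003 and 9e-05, adjusted 0.00045 and 0.000135), with r = 0.730 in the 22 series, 0.796 in the others, and 0.733 without the 2 farthest libraries. Summed globin and Cyb5r3 had r = -0.089 and rho = -0.062 (permutation p = 0.667 and 0.764, also after adjustment), with r = -0.433 in the 22 series, 0.043 in the others, and -0.074 without the 2 farthest libraries.

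Among 12904 other genes with a mean log2 CPM of at least 1, those most like summed globin over the 26 libraries were Fah (r = 0.686), Pgap2 (0.685), H2-Q10 (0.678), Pgpep1 (0.675) and Ccdc61 (0.668). Those values are below the 0.989 to 0.997 of the 4 globin genes, which are part of that sum, and near the 0.661 of Alas2. The genes most like Cyb5r3 were Cenpb (0.840), Sars1 (0.828), Spryd3 (0.818), Hprt1 (0.788) and Ccdc91 (0.786). These correlations span 2 library series and libraries of unequal depth, and are given as descriptions.

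The other haemoglobin chains examined were nearly absent. Of 7 embryonic, theta-type and related chains, Hba-x, Hbq1a, Hbb-bh1, Hbb-bh2 and Hbb-bh0 had 0 counts in every library, Hbq1b at most 2 and Hbb-y at most 1, and none could be tested. Apart from these few counts, the reads of the chains examined were assigned to the 4 adult genes. Hbb-bh3, which overlaps Hbb-bs, was not examined.

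Most other genes of the erythrocyte programme were at very low counts. Of 20 such genes 19 were matched, and 14 of them had at most 36 counts in every library, among them Slc4a1 (band 3, at most 15) and Klf1 (an erythroid transcription factor, at most 12). Those with more counts included Sptb, Ank1, Bpgm and Slc25a37. Of 5 or 6 tested in each comparison, 0 passed by edgeR, with median log2 fold changes of 0.18 in KO, -0.16 in Y198F, 0.01 in S205A (-0.02 without the library labelled S205A control 1) and 0.03 in Y308F, beside medians over all genes of 0.01, 0.00, -0.01 and -0.03. Bpgm, the enzyme that makes the haemoglobin regulator 2,3-bisphosphoglycerate, was at -0.33 in KO (adjusted p = 0.341 by edgeR) and Slc25a37, the mitochondrial iron importer, at 0.11. Bpgm, Slc25a37, Ank1 and Sptb, which are also expressed outside erythrocytes, made up 92.9% to 99.2% of the list's counts. The list's summed level, 94.6 to 151 CPM, thus follows these 4 genes, and its r with summed globin was 0.181 (permutation p = 0.370, adjusted 0.494 over 4 relations added after the data were seen) and its rho 0.307 (permutation p = 0.126, adjusted 0.281). The r was -0.194 in the 22 series, 0.356 in the others and 0.192 without the 2 libraries farthest in globin.

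Markers of other blood cells were set beside globin in the same way. Platelet markers summed to 2.86 to 12.3 CPM and had r = 0.410 with summed globin (permutation p = 0.0383, adjusted 0.0765) and rho = 0.227 (permutation p = 0.265, adjusted 0.353). The 5 neutrophil markers summed to 0 to 1.01 CPM, with Retnlg at 0 in every library, and had r = 0.433 (permutation p = 0.0287, adjusted 0.0765) and rho = 0.298 (permutation p = 0.141, adjusted 0.281). Endothelium markers, 898 to 6812 CPM in sum, had r = 0.033 (permutation p = 0.864, adjusted 0.864) and rho = -0.060 (permutation p = 0.770). Within the 22 series and within the others, r was 0.592 and 0.492 for platelets, 0.693 and 0.437 for neutrophils, and -0.269 and 0.229 for endothelium. Without the 2 libraries farthest in globin, r was 0.261 for platelets (adjusted permutation p = 0.426), 0.548 for neutrophils (adjusted permutation p = 0.0214) and 0.170 for endothelium (adjusted permutation p = 0.426). For deviations from the group means r was 0.565 for platelets (adjusted permutation p = 0.00952), 0.383 for neutrophils (adjusted permutation p = 0.107) and -0.142 for endothelium (adjusted permutation p = 0.561). By Spearman's rho the platelet relation for deviations had an adjusted permutation p of 0.0704 and the neutrophil relation without the 2 libraries one of 0.124. The platelet and neutrophil relations thus passed in 1 of these settings each by r, in none by rho and not over all libraries, and the neutrophil sums rest on very few counts. The part of blood left in the vessels in the globin levels was not tested.

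Of 12 genes of haem synthesis and breakdown, all tested, 2 were higher in Y198F than in its controls and 0 lower, and 0 passed in the other 3 comparisons by edgeR. The 2 of 12 are near the 15% of all genes called in Y198F and are not a result about this list. Alas1, the housekeeping counterpart of Alas2, averaged 70.6 CPM ± 6.26 (SD, n = 3) for Y198F against 52.4 ± 2.06 (SD, n = 3) for its controls, a log2 fold change of 0.42 (adjusted p = 0.0166). Ppox, a later enzyme of haem synthesis, was at 0.38 (adjusted p = 0.0469). Against the 3 S205A controls of the 22 series Alas1 was at 0.00 and Ppox at 0.12 (both adjusted p = 1), and against S205A controls 2 and 3 alone at 0.08 and 0.26 (both adjusted p = 0.999), so these calls cannot be told apart from the library series. In KO, Alas1 was at -0.44 with an adjusted p of 0.296 and Ppox at 0.09. The median log2 fold change of the list was -0.30 in KO, 0.22 in Y198F, -0.02 in S205A (-0.01 without the library labelled S205A control 1) and -0.11 in Y308F.

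Of 9 further genes of the cytochrome b5 and nitric oxide system, 1 was higher in Y198F, 0 were lower and 0 passed elsewhere by edgeR, where 1 of 9 is near the 15% of all genes called in Y198F. Nos3, the endothelial nitric oxide synthase, was at 0.62 in Y198F (adjusted p = 0.0135) and at 0.04 (adjusted p = 1) against the 3 S205A controls of the 22 series and -0.40 (adjusted p = 0.999) against S205A controls 2 and 3 alone. Of the 6 endothelium markers 2 were also higher in Y198F and 0 lower, beside the 15% of all genes called there, with Cldn5 at 0.59 (adjusted p = 0.0043), Tie1 at 0.39 (adjusted p = 0.0344), Cdh5 at 0.18, Kdr at 0.12, Pecam1 at 0.01 and Tek at -0.22. Their median was 0.15, and their summed level was 3548 to 3667 CPM in Y198F and 3056 to 3754 CPM in its controls. Of 5 smooth muscle markers 2 were higher and 0 lower, Tagln at 1.14 (adjusted p = 0.00361) and Smtn at 0.54 (adjusted p = 0.0164), with a median of 0.31 and sums of 21210 to 29035 CPM in Y198F and 22339 to 26700 CPM in its controls. Of 4 fibroblast markers 0 passed by edgeR, with a median of -1.12 and sums of 922 to 1379 CPM against 1251 to 1816 CPM. Pdgfra, Dpt and Lum had unadjusted p of 0.0298, 0.0272 and 0.0264 by edgeR, and Col1a1 0.859. The part of cell content in the Nos3 value was not tested. Nos3 and Gucy1a1, a subunit of soluble guanylate cyclase, were the most abundant of the list per length, at 77.7 and 87.6 CPM per kb, below the 161 CPM per kb of Cyb5r3. The list's median log2 fold change was -0.06 in KO, -0.05 in Y198F, -0.07 in S205A (-0.05 without the library labelled S205A control 1) and 0.03 in Y308F.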

How the data were processed

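The authors mapped paired 150-base reads of poly(A) RNA to GRCm39 with STAR 2.7.9a and counted them per gene with featureCounts, per the labels and the submitters' processing notes. The deposited counts are whole numbers for 57010 genes, not normalized. The deposited normalized signal holds the same counts divided by 1 factor per library, for 21031 genes. The authors' 4 tables of comparisons come from DESeq2 1.46.0, per the submitters' processing notes, and give log2 fold changes, a test score and p-values per the file headers. The annotation release is not given in the sources used here.

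Counts were tested with edgeR 4.0.16 in R 4.3.3 (TMM, filterByExpr, robust quasi-likelihood fits of each mutant with its own controls, Benjamini-Hochberg over all genes). DESeq2 1.42.0 and limma 3.58.1 were alternatives. The edgeR script was tested on simulated data. CPM used TMM library sizes of all 26 libraries, log2 CPM a prior count of 2, and a count of 0 was limited by 3 counts. Intervals of shares are exact binomial (95%) and, like that limit, cover counting error only. SEs and 95% intervals of fold changes were derived from edgeR's F values. Exact permutation tests are two-sided. Of the 57010 genes 56310 were in GENCODE M39.

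The 6 genes and all lists were chosen with earlier results of these data known. Named genes were the 6, list genes past an adjusted p of 0.05 (at most 5 per list) or otherwise the 2 most abundant per length, and the 5 most alike. Slc4a1, Klf1, Sptb, Ank1 and the endothelium, smooth muscle and adipocyte markers were named after their values were seen. Libraries were not treated as paired by replicate number in the main tests. Over 30 pairs of libraries within groups, counts differed by more than sampling noise (chi-square per degree of freedom 15.0 to 159).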

Additional observations from a re-analysis of the deposited data

Results flagged for a closer look

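S205A control 1 was far above the other 3 libraries of its group in alpha globin. Hba-a1 was at 35.1 CPM, Hba-a2 at 31.0 CPM and their sum at 66.1 CPM, with gaps to the next library of 0.915, 0.880 and 0.898 of the group's range, above Dixon's 95% limit for 4 samples. The 3 measures share reads. Only groups of 4 libraries, the S205A controls and S205A mutants, could be examined, in 24 overlapping combinations of measure and group. Chance alone would mark about 1 in 20 of these. Groups of 3 libraries, such as WT, could not be flagged. S205A control 1 also had 16 Panx1 counts. Their part in these values was not tested.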

How the results depend on the processing

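All 6 genes stayed short of the threshold in all 58 refits of the 4 comparisons, which gave 347 values, with the smallest adjusted p at 0.06 for Alas2 in KO with no filter on low counts. Direction was kept in 320 of these values and reversed in 27. With voom, Hba-a1 was at -0.41, Hba-a2 at -0.43, Hbb-bs at 1.06 and Hbb-bt at 0.54 in KO, the globin genes at 0.41 to 0.60 and Alas2 at 1.40 in S205A, and Hbb-bs at 0.015 and Alas2 at -0.16 in Y308F. Within the 22 series Hbb-bs was at -0.029 in S205A.

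Leaving out 1 library moved KO values between -3.51 and 0.52 (Hba-a1), -3.46 and 0.54 (Hba-a2), -3.29 and 0.74 (Hbb-bs), and -3.57 and 0.67 (Hbb-bt). Y198F values moved between -0.033 and 3.28 (Hba-a2), -0.15 and 3.13 (Hbb-bs), 0.36 and 3.33 (Hbb-bt), and 0.29 and 1.18 (Alas2). S205A values moved between 0.057 and 1.01 (Hba-a1), 0.078 and 1.06 (Hba-a2), -0.016 and 0.81 (Hbb-bs), -0.066 and 0.79 (Hbb-bt), -0.26 and 1.48 (Alas2), and -0.086 and 0.011 (Cyb5r3). Y308F values moved between -1.48 and 0.75 (Hba-a1), -1.40 and 0.77 (Hba-a2), -1.39 and 1.03 (Hbb-bs), -1.16 and 1.25 (Hbb-bt), and -1.34 and 0.31 (Alas2). Summed globin moved between -2.43 and 2.08 in KO, 0.67 and 2.58 in Y198F, 0.24 and 0.96 in S205A, and -1.49 and 1.13 in Y308F. The log2 alpha to beta ratio moved between -1.13 and -0.14, -0.17 and 0.15, -0.064 and 0.22, and -0.34 and -0.22 in the same order.

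Genes past the threshold in KO were 5, and 107 with DESeq2, 2 with voom, 243 with no filter and 1 to 5 with 1 library left out. In Y198F they were 2411, and 922 with all groups in 1 fit, 0 with the series as a term, 0 against the S205A controls of the 22 series, 0 against S205A controls 2 and 3 (added after seeing the data) and 908 to 2128 with 1 library left out. In S205A they were 0, and 40 with DESeq2 and 0 to 1 with 1 library left out. In Y308F they were 0, and 7 with no filter and 0 to 1 with 1 library left out. In settings added after seeing the data, without WT 3, Y198F mutant 3 or both, the KO minus Y198F effect moved between -2.95 and 0.49 (Hba-a1), -2.84 and 0.57 (Hba-a2), -2.55 and 0.89 (Hbb-bs), -3.34 and 0.30 (Hbb-bt), and -0.063 and 0.0041 (Cyb5r3), with -0.025 (Cyb5r3) without Y198F mutant 3 alone. Without S205A control 1 the Cyb5r3 effect was 0.011 for KO minus S205A and 0.015 for Y198F minus S205A, where Alas2 was at -0.69. The relation of globin with Cyb5r3 was 0.043 outside the 22 series. The causes were not tested.

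Deviations of same-numbered libraries correlated between -0.284 and 0.225, which showed no pairing by replicate number but cannot exclude littermate pairs. With the replicate block, genes past the threshold were 18 in KO, 1760 in Y198F, 0 in S205A and 0 in Y308F, and Hbb-bs was at 0.030 in Y308F. KO values were then -0.73 (Hba-a1), -0.75 (Hba-a2), -0.47 (Hbb-bs), -0.86 (Hbb-bt) and -1.34 (Alas2), S205A values 0.42 to 0.59 for the globin genes and 0.99 for Alas2, and Alas2 was at -0.27 in Y308F. The block brought no globin comparison past the threshold.

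Depth limits Alas2 and the globin genes of WT 2, and the spread between libraries limits every globin comparison.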
